A study of Mus musculus with 9 samples.

Results

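The receptor genes that carry the growth signals of blood cell formation were followed across dendritic cells sorted from the mouse thymus. They were 7 genes, Flt3, Kit, Csf1r, Csf3r, Csf2ra, Csf2rb and Csf2rb2. They were taken by gene symbol from the deposited count table, which names 55278 genes, and all 7 were found there. All 7 were also among the 15417 genes with enough counts to be tested. RNA-seq had been done on 9 libraries, 3 from each of 3 populations that the labels call CD301b, SIRPa and XCR1, all from C57BL/6 mice 8 weeks of age. No treatment and no genotype other than the strain is named, so the sort is the only difference between the populations that the labels give. CD301b is a lectin encoded by Mgl2, SIRPa marks the conventional dendritic cells known as cDC2, and XCR1 is the chemokine receptor that marks cDC1. The design text speaks of 3 mice. The CD301b libraries are numbered 1, 3 and 4 and the others 1 to 3, and it is not stated which libraries share an animal, so each p-value measures the spread between these libraries, which may be technical.

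Growth factor receptors of 2 kinds are represented. FLT3, KIT and CSF1R are receptor tyrosine kinases: binding of FLT3 ligand, stem cell factor, or CSF-1 and IL-34 pairs 2 receptor molecules, which then phosphorylate each other. CSF3R and the GM-CSF receptor have no kinase of their own and signal through JAK2 and STAT5 or STAT3. FLT3 signalling sustains dendritic cells from their bone marrow precursors onwards, CSF1R is best known in macrophages and monocytes, KIT in stem cells, early thymic progenitors and mast cells, and CSF3R in neutrophils.

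The libraries held 20246092 to 25438864 counts, so that 3 counts corresponded to 0.119 to 0.150 CPM, the field's usual unit of counts scaled to library size. All levels given are CPM on library sizes scaled by the trimmed mean of M values (TMM), as mean ± SD over 3 libraries unless said otherwise. Intervals and floors drawn from counts cover counting error only. One source label reads thymocytes while the cell type label reads thymic dendritic cells. All 10 dendritic cell markers listed (among them Zbtb46, Itgax and H2-Ab1) had counts in every population and summed to 21461 to 33655 CPM per library. Cd74, H2-Ab1 and H2-Aa made up most of each sum. By the test described below, 6 genes were higher and 1 lower in CD301b than in SIRPa cells (2.2% and 2.08% of all genes). In SIRPa against XCR1 cells, 2 were higher and 4 lower (13.9% and 10.7%). In CD301b against XCR1 cells, 4 were higher and 3 lower (13.5% and 9.12%). Zbtb46 was at 135 to 153, 85.3 to 110 and 154 to 203 CPM in CD301b, SIRPa and XCR1 libraries. How the gates were set is not stated.

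Between CD301b and SIRPa cells, 2 of the 7 receptor genes passed the test (Benjamini-Hochberg adjusted p below 0.05 over the 15417 genes, edgeR's quasi-likelihood test), Flt3 higher and Kit lower in CD301b cells. Of all genes tested, 4.28% did so in this comparison, 2.2% higher in CD301b and 2.08% higher in SIRPa cells. Between SIRPa and XCR1 cells, 6 of 7 passed, Csf1r, Csf3r, Csf2rb and Csf2rb2 higher in SIRPa cells and Flt3 and Kit lower, against 24.7% of all genes (13.9% higher in SIRPa and 10.7% higher in XCR1 cells). Between CD301b and XCR1 cells, 4 of 7 passed, Csf1r and Csf3r higher in CD301b cells and Flt3 and Kit lower, against 22.6% of all genes (13.5% higher in CD301b and 9.12% higher in XCR1 cells). In 6, 6 and 5 of the 7 genes, in the same order of comparisons, no library of 1 population overlapped the other population, against 22.1%, 40.2% and 34.4% of all genes. The comparisons share libraries, so they are not independent of each other. The median log2 fold change of the 7 genes was -0.16, 0.26 and 0.22 in the 3 comparisons in that order, and over all genes tested it was 0.01, 0.06 and 0.05.

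**Figure D1:**
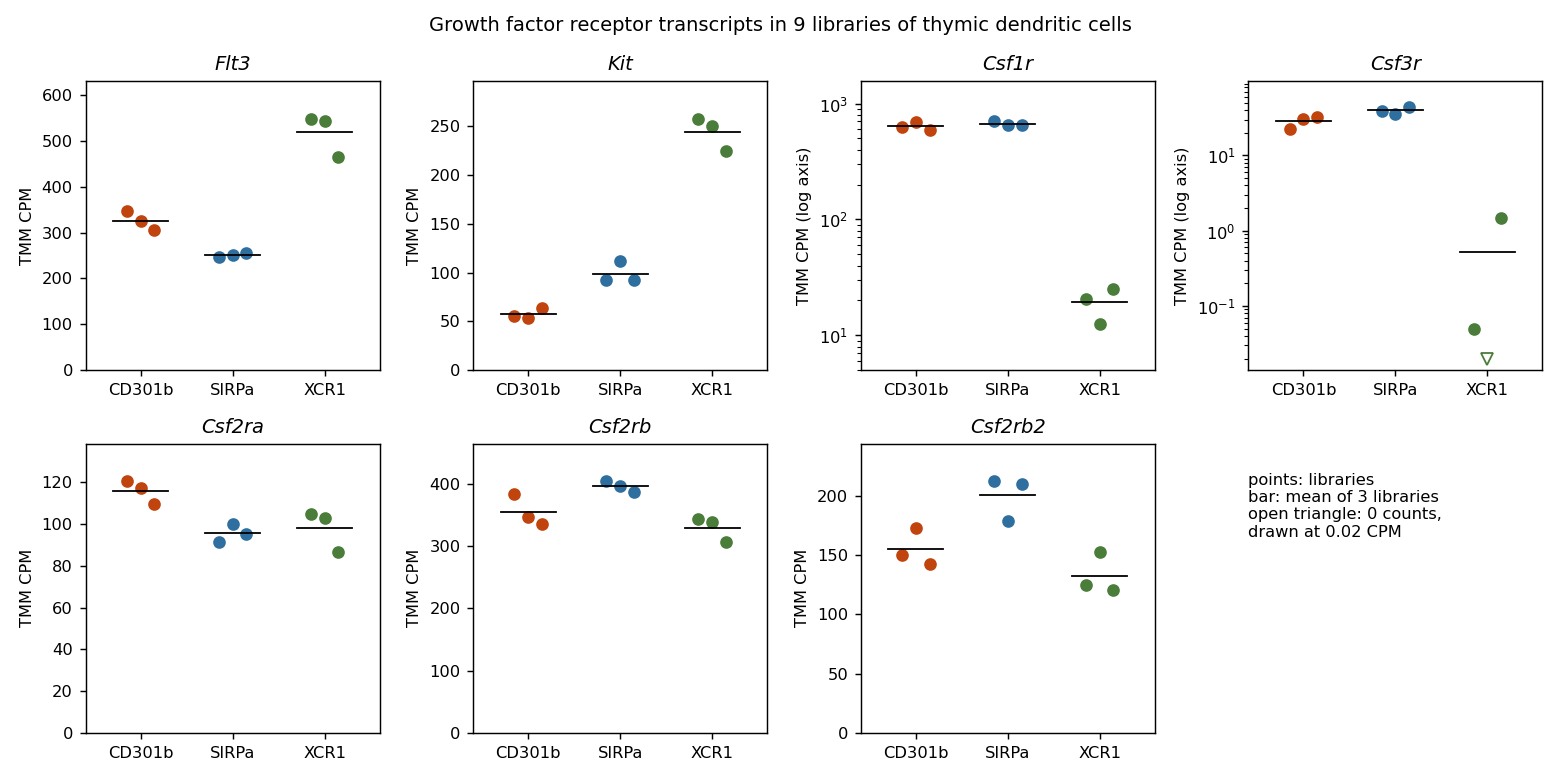
Level of each receptor gene in the 9 libraries, in CPM, with a log axis for Csf1r and Csf3r and a linear axis from 0 for the others. Points are libraries, bars are means of 3 libraries, and the open triangle is an XCR1 library with 0 counts of Csf3r. Flt3 and Kit are highest in the XCR1 libraries, Csf1r and Csf3r are lowest there, and Csf2ra, Csf2rb and Csf2rb2 vary less than these.

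Flt3 lies at chr5:147330741-147400489 on the minus strand (GRCm38, GENCODE M21). It was at 348, 325 and 306 CPM in CD301b replicates 1, 3 and 4, at 247, 252 and 256 CPM in SIRPa replicates 1 to 3, and at 548, 542 and 465 CPM in XCR1 replicates 1 to 3. The 3 populations did not overlap: every XCR1 library lay above every CD301b library, and every CD301b library above every SIRPa library. The means were 326 ± 21.0, 252 ± 4.04 and 519 ± 46.2 CPM. The fall from XCR1 to SIRPa cells was the largest step, with a log2 fold change of -1.04 ± 0.10 (SE, SIRPa minus XCR1, adjusted p = 6.07e-08). CD301b cells were lower than XCR1 cells by a log2 fold change of -0.67 ± 0.10 (adjusted p = 2.39e-05). The smallest step, CD301b above SIRPa cells by 0.37 ± 0.10 (adjusted p = 0.0302), did not hold up against the loss of single libraries. Its adjusted p was 0.145 without CD301b replicate 1, 0.0765 without CD301b replicate 3, and 0.135, 0.120 and 0.108 without SIRPa replicates 1, 2 and 3. In bulk libraries such as these, fewer cells that express a gene and less of its RNA per cell cannot be told apart.

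Kit lies at chr5:75574916-75656722 on the plus strand (GRCm38), on the same chromosome as Flt3. Its levels were 55.8, 52.9 and 63.7 CPM in the CD301b libraries, 92.7, 111 and 92.5 CPM in the SIRPa libraries and 257, 250.2 and 225 CPM in the XCR1 libraries. No library of 1 population overlapped another, and the order of CD301b and SIRPa cells was the opposite of that for Flt3. The means were 57.5 ± 5.55, 98.9 ± 10.9 and 244 ± 17.2 CPM. Kit was lower in CD301b than in SIRPa cells (log2 fold change -0.78 ± 0.12, adjusted p = 0.000343), lower in SIRPa than in XCR1 cells (-1.30 ± 0.12, 3.94e-08) and lower in CD301b than in XCR1 cells (-2.09 ± 0.12, 3.46e-11). All of these calls were kept in each alternative fit that was run.

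Markers of other KIT-bearing cells were read beside it. Of 12 mast cell and basophil genes, 9, 6 and 9 were at 0 in all CD301b, SIRPa and XCR1 libraries, Mcpt8, Tpsb2, Fcer1a and Prss34 in all 9, and the summed list was 0.0398 to 2.14, 1.70 to 3.88 and 0.0950 to 4.68 CPM. Kit was at 52.9 CPM or more in every library. The 13 thymic progenitor and T cell genes summed to 414 to 718 CPM in CD301b cells and 629 to 836 CPM in SIRPa cells. In XCR1 replicates 1, 2 and 3 they summed to 199, 160.5 and 721 CPM. Replicate 3 had the lowest Kit and Flt3 level of the 3, and also the lowest Csf2ra, Csf2rb and Csf2rb2 level. Its Csf1r and Csf3r levels were the highest of the 3. Cd4 was at 195 to 318 CPM in CD301b and SIRPa libraries and 15.1 to 39.5 CPM in XCR1 libraries, and Tcf7 at 92.8 to 292 CPM over the 9 libraries. Together they made up much of the sums in CD301b and SIRPa libraries. The progenitor gene Cd34 was at 0 to 4.54 CPM. Rag1 and Dntt, of the same list, were at 115 and 75.7 CPM in XCR1 replicate 3. In XCR1 replicates 1 and 2 they were at 4.99 to 8.18 and 2.23 to 4.84 CPM. In CD301b and SIRPa libraries they were at 9.58 to 62.7 and 6.65 to 16.2 CPM. Of the 12 genes of this list that were tested, 1 was called higher in SIRPa than in XCR1 cells and 1 in CD301b than in XCR1 cells. Of all genes tested, 13.9% and 13.5% were higher in these comparisons. The part of these cell types in the Kit differences was not tested.

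Flt3 and Kit, the pair of receptor genes highest in XCR1 cells, are shown by the DNA that precedes their transcripts. The letters are from RefSeq promoter windows (GRCm38.p6), trimmed to the bases before the first annotated transcript base, read 5′ to 3′ on the gene's strand, chr5:147400490-147400739 for Flt3 (minus) and chr5:75574737-75574915 for Kit (plus). Capitals mark the motif GAGGAA, the core bound by PU.1, a transcription factor of myeloid and dendritic cells.
Flt3: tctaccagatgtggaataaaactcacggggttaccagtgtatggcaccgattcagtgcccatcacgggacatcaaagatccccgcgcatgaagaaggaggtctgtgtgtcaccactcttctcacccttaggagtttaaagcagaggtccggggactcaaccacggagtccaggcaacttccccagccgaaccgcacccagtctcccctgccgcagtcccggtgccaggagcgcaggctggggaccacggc
Kit: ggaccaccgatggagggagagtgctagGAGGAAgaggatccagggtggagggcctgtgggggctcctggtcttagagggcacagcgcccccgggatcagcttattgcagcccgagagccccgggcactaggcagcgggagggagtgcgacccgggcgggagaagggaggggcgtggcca
Searched on both strands over whole windows of 300 bases, GAGGAA occurred 1 time in Kit and in Csf3r, 2 times in Csf2ra and in Csf2rb2, and not in Flt3. It occurs in 28.3% of the 32851 promoter windows in the table. TGTGGT, the core bound by RUNX factors (16.8% of windows), occurred in none of the 5 receptor genes that have a window. A match is a description of the letters only, and a missing match says nothing of the factor.

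Csf1r (chr18:61100598-61132149, plus strand, GRCm38) separated XCR1 cells from both other populations. It was at 627, 698 and 592 CPM in the CD301b libraries, at 711, 652 and 654 CPM in the SIRPa libraries and at 20.7, 12.5 and 24.9 CPM in the XCR1 libraries. CD301b and SIRPa libraries overlapped, and all 6 lay far above the XCR1 libraries. The log2 fold change was 5.12 ± 0.21 for SIRPa minus XCR1 (adjusted p = 1.18e-09) and 5.04 ± 0.21 for CD301b minus XCR1 (1.40e-09), which are the largest changes of the 7 genes after Csf3r. In ratios of summed counts scaled for library size, Csf1r was 34.8-fold and 33.2-fold higher than in XCR1 cells. Between CD301b and SIRPa cells the difference was -0.07 ± 0.17, and its 95% interval from -0.42 to 0.27 leaves room for a modest change either way. Its SE was 0.10 without XCR1 replicate 2 and 0.09 with the 6 libraries compared alone. A gene on the opposite strand, Hmgxb3, overlaps 873 of the 5774 exonic bases of Csf1r. The library kit was stranded, but the strand setting of the counting is not given, so reads from that overlap may have been counted to neither or to either gene.

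Summed macrophage and monocyte transcripts were, like Csf1r, lowest in XCR1 cells. The 16 macrophage genes listed (such as Adgre1, C1qa and Mertk) summed to 3013 to 3398 CPM in CD301b, 5842 to 6799 CPM in SIRPa and 231 to 291 CPM in XCR1 libraries, where Marco was at 0. The 12 monocyte genes summed to 1229 to 1458, 1194 to 1223 and 137 to 221 CPM. All 16 macrophage genes were called higher in CD301b than in XCR1 cells and 15 of 16 in SIRPa than in XCR1 cells. Of the 12 monocyte genes, 8 were called higher and 1 lower in CD301b than in XCR1 cells. In SIRPa against XCR1 cells, 7 were called higher and 1 lower. Over all genes, 13.5% were called higher and 9.12% lower in CD301b cells, and 13.9% and 10.7% in SIRPa cells. Treml4, a gene of nonclassical monocytes, ran against the sum, at 2.35 to 2.56, 4.44 to 6.46 and 18.1 to 26.0 CPM in CD301b, SIRPa and XCR1 libraries. The part of these cells in the Csf1r difference was not tested. CD301b libraries held less of the macrophage sum than any SIRPa library, while their Csf1r levels overlapped. That sum was led by Apoe, at 1168 to 1467 CPM in CD301b and 3002 to 3741 CPM in SIRPa libraries. Of the 16 genes, 2 were called lower and 1 higher in CD301b than in SIRPa cells, against 2.08% and 2.2% of all genes. Timd4, at 47.0 to 71.9 against 12.9 to 25.5 CPM, Cd163 and Marco had their higher values in the CD301b libraries.

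Csf3r (chr4:126024550-126044440, plus strand, GRCm38) encodes the G-CSF receptor. It stood at 22.4, 30.2 and 32.8 CPM in the CD301b libraries and at 38.6, 35.9 and 44.3 CPM in the SIRPa libraries. The XCR1 libraries held 1, 0 and 31 counts (0.0499, 0 and 1.5 CPM), so that 1 library supplied nearly all of the group's signal. Every SIRPa library lay above every CD301b library, yet the difference did not pass the test (log2 fold change -0.48 ± 0.67, CD301b minus SIRPa, adjusted p = 0.882). The SE moved with the XCR1 libraries in the fit: without XCR1 replicate 3 it was 0.21 (adjusted p = 0.291), and with the 6 libraries compared alone it was 0.19 (adjusted p = 0.183).

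Against XCR1 cells, Csf3r was higher by a log2 fold change of 6.24 ± 0.93 in SIRPa cells (adjusted p = 0.00229) and 5.77 ± 0.92 in CD301b cells (0.00358). As ratios of scaled counts, these were 76.3-fold (95% interval 53.9 to 112) and 54.4-fold (38.4 to 79.8), over 32 XCR1 counts. The sizes rest on XCR1 replicate 3. Without it, the fitted log2 fold changes were 10.36 ± 0.52 (adjusted p = 1.99e-12) and 9.89 ± 0.52 (4.46e-12). The ratios were then 1623 (291 to 64140) and 1157 (207 to 45726), over a single XCR1 count. These intervals cover counting error only and leave out the spread between XCR1 libraries. With and without replicate 3 the intervals do not overlap, so neither gives a bound on the size of the difference.

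Neutrophil transcripts were read beside Csf3r in the same libraries. The 14 neutrophil genes listed summed to 28.2, 32.2 and 18.4 CPM in CD301b replicates 1, 3 and 4, to 48.8, 19.2 and 76.3 CPM in SIRPa replicates 1 to 3, and to 0.449, 1.66 and 48.7 CPM in XCR1 replicates 1 to 3. The XCR1 library with the most Csf3r was thus also the one with the most neutrophil transcripts. Of 9 neutrophil genes tested, 1 was called higher in CD301b than in SIRPa cells and 1 higher in CD301b than in XCR1 cells. Over all genes, 2.2% and 13.5% were higher in these comparisons. None of the 9 was called between SIRPa and XCR1 cells, against 24.7% of all genes. In CD301b replicate 4, the listed genes S100a8, S100a9, Ly6g, Ltf, Ngp and Camp were all at 0 while Csf3r was at 32.8 CPM. The chemokine receptor Cxcr2, at 18.3 CPM, made up nearly the whole sum of that library. In CD301b replicate 3, with Csf3r at 30.2 CPM, S100a9, Ltf and Ngp were at 2.85, 2.81 and 1.01 CPM. In CD301b replicate 1, with Csf3r at 22.4 CPM, S100a9 was at 0.797, Ltf at 0.0398 and Ngp at 0 CPM. Among the SIRPa libraries, replicate 2 had the lowest and replicate 3 the highest value of both Csf3r and the neutrophil sum, but the sum ranged far more widely than Csf3r. The part of neutrophil RNA in the Csf3r differences was not tested.

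**Figure D2:**
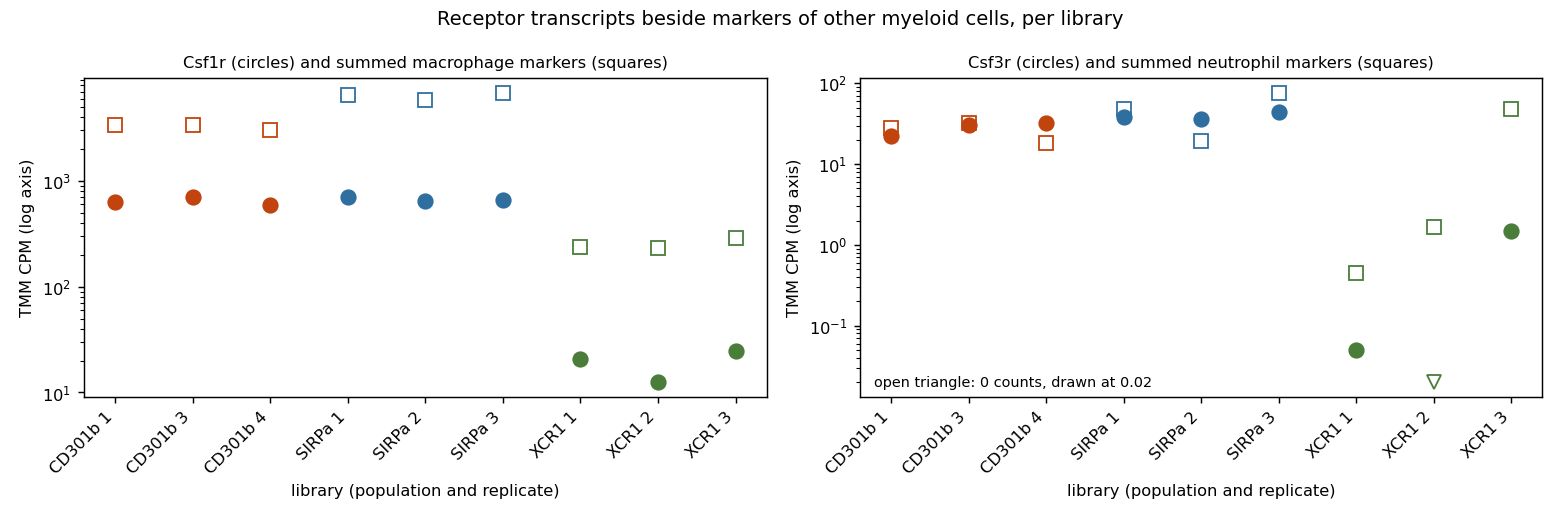
Csf1r beside the summed macrophage genes (left) and Csf3r beside the summed neutrophil genes (right) in each library, in CPM on log axes. Filled circles are the receptor, open squares the marker sum, and the open triangle an XCR1 library with 0 counts of Csf3r. The macrophage sum, of which Apoe is the largest part, separates SIRPa from CD301b libraries while Csf1r does not, and XCR1 replicate 3 stands apart in the right panel. Cxcr2 makes up most of the neutrophil sum in the CD301b libraries.

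The GM-CSF receptor is built from a ligand-binding alpha chain, Csf2ra, and a signalling beta chain shared with the IL-3 and IL-5 receptors, Csf2rb. Mice carry a second beta chain gene, Csf2rb2, whose product serves IL-3 alone. Csf2ra lies at chr19:61223957-61228429 (minus strand), Csf2rb at chr15:78325752-78353847 (plus) and Csf2rb2 beside it at chr15:78282507-78305721 (minus), all in GRCm38. Their coding sequences are near copies: of 2628 aligned coding bases, 2503 (95.2%) are identical between Csf2rb and Csf2rb2. The Csf2rb transcript searched was Csf2rb-201, chosen for the length of its coding sequence. Of all its stretches of 50, 75 and 100 bases, 18.9%, 11.0% and 7.16% occur unchanged in a Csf2rb2 transcript. Neither the read length nor the treatment of reads that map to both genes is stated, so the division of counts between these 2 genes is uncertain.

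The longest identical run within 1 exon of each gene shows what a read cannot tell apart. It spans 242 bases, coding bases 2083 to 2324 of both genes, at chr15:78348577-78348818 (plus, Csf2rb) and chr15:78284630-78284871 (minus, Csf2rb2) in GRCm38.
Csf2rb and Csf2rb2: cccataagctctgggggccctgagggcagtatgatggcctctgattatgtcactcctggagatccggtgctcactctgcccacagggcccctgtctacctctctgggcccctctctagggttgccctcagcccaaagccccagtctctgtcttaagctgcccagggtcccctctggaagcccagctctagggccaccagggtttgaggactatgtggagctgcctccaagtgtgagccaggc
The 60-base coding window in which the genes differ most, at chr15:78338893-78338952 (plus, Csf2rb) and chr15:78294379-78294438 (minus, Csf2rb2), holds 13 differing bases, shown in capitals.
Csf2rb: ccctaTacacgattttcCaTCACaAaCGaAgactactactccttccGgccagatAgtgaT
Csf2rb2: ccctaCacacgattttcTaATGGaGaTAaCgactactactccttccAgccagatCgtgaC

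Csf2ra was at 120.4, 118 and 109.6 CPM in the CD301b libraries, at 91.6, 100.03 and 95.3 CPM in the SIRPa libraries and at 105, 103 and 86.9 CPM in the XCR1 libraries. CD301b libraries lay above all others, but no comparison passed the test. The log2 fold change was 0.28 ± 0.12 for CD301b minus SIRPa (adjusted p = 0.265, 95% interval 0.05 to 0.51) and 0.24 ± 0.12 for CD301b minus XCR1 (0.172). SIRPa and XCR1 libraries overlapped (-0.04 ± 0.12, adjusted p = 0.873, interval -0.27 to 0.19).

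Csf2rb was at 383, 347 and 335 CPM in the CD301b libraries, at 404, 396 and 388 CPM in the SIRPa libraries and at 343, 339.7 and 306 CPM in the XCR1 libraries. All SIRPa libraries were higher than the others, and CD301b and XCR1 libraries overlapped. The rise in SIRPa over XCR1 cells was small, 0.26 ± 0.10 on the log2 scale, and barely passed (adjusted p = 0.0479). It did not pass with all genes kept regardless of counts (adjusted p = 0.121) or in fits that left out any 1 library other than CD301b replicate 4 (0.0537 to 0.170). CD301b differed from SIRPa cells by -0.16 ± 0.10 (adjusted p = 0.521) and from XCR1 cells by 0.11 ± 0.10 (0.498).

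Csf2rb2 was at 149.8, 172 and 142 CPM in the CD301b libraries, at 212, 179 and 209.8 CPM in the SIRPa libraries and at 125, 153 and 120.4 CPM in the XCR1 libraries. It too was highest in every SIRPa library, and its rise over XCR1 cells was 0.59 ± 0.12 (adjusted p = 0.000833), a call kept in each alternative fit. CD301b cells were lower than SIRPa cells by a log2 fold change of -0.37 ± 0.12, which did not pass in edgeR (adjusted p = 0.101) and did in DESeq2 (0.0405). CD301b and XCR1 libraries overlapped (0.22 ± 0.12, adjusted p = 0.213). Since the genes share sequence, their counts were also added. The sum was higher in SIRPa than in XCR1 cells by 0.37 ± 0.09 (adjusted p = 0.00547), and CD301b cells differed from SIRPa cells by -0.22 (0.246) and from XCR1 cells by 0.14 (0.325).

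**Figure D3:**
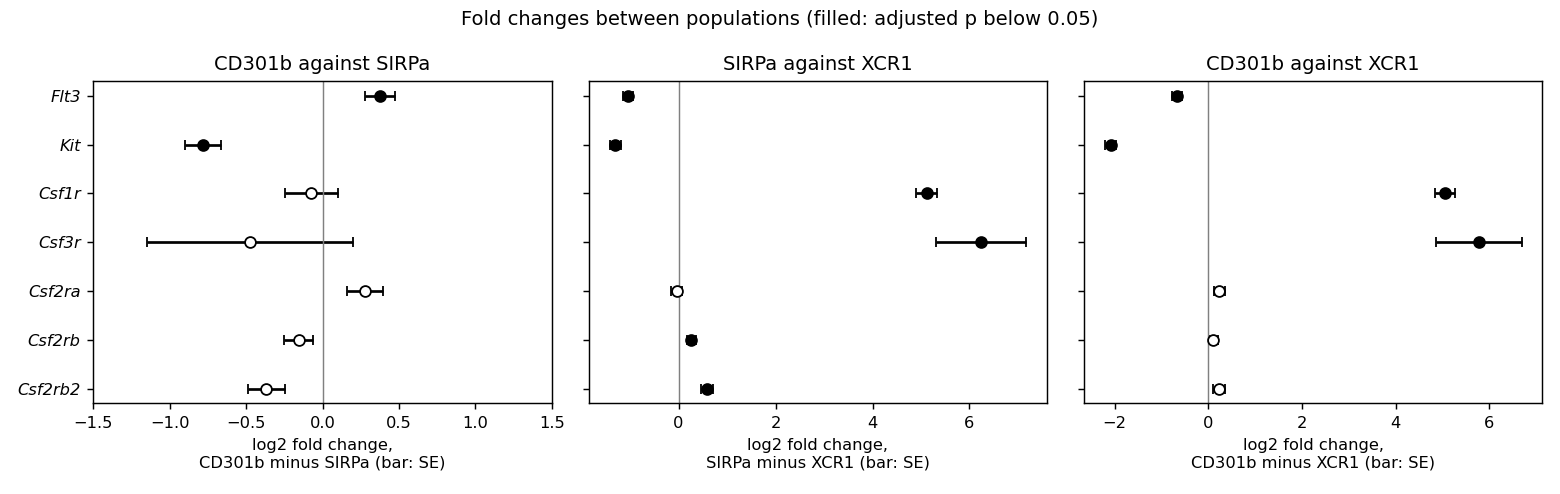
Log2 fold change of each receptor gene in the 3 comparisons, with bars for the SE. Filled points have an adjusted p below 0.05 and open points do not, and each panel has its own scale. Csf1r and Csf3r lie far to the right of 0 against XCR1 cells, and Flt3 and Kit to the left. Among Csf2ra, Csf2rb and Csf2rb2 the largest change is 0.59, for Csf2rb2 between SIRPa and XCR1 cells.

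The balance of alpha and beta chain RNA was compared within libraries, which needs no scaling between them. Per 100 counts of Csf2rb and Csf2rb2 together, Csf2ra had 22.6, 22.6 and 22.9 counts in the CD301b libraries, 14.9, 17.4 and 15.9 in the SIRPa libraries and 22.4, 20.9 and 20.4 in the XCR1 libraries. SIRPa libraries were below all others, and CD301b libraries lay above XCR1 libraries. The means were 22.7 ± 0.198, 16.1 ± 1.27 and 21.2 ± 1.08. In each pair of populations the values did not overlap, which gave a p of 0.1 (two-sided exact permutation test), the smallest that 3 against 3 libraries allow, and 0.1 after adjustment over the 3 pairs. Csf2rb2 made up 30.4 ± 2.59, 33.5 ± 2.16 and 28.6 ± 2.19% of the 2 beta chain genes' counts (exact permutation p = 0.2 for CD301b against SIRPa, 0.1 for SIRPa against XCR1 and 0.5 for CD301b against XCR1, adjusted 0.3, 0.3 and 0.5). The alpha chain ratio was added after the data had been seen.

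**Figure D4:**
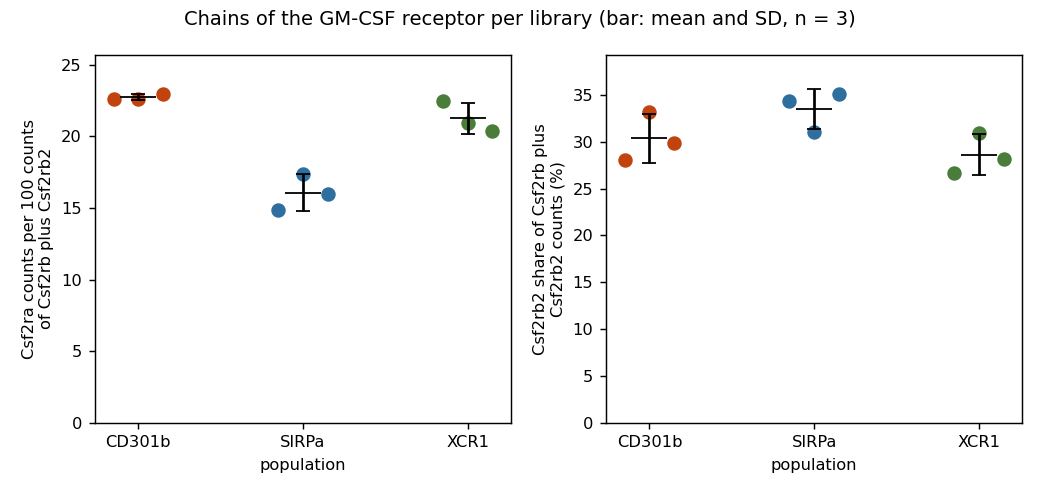
Csf2ra counts per 100 counts of Csf2rb plus Csf2rb2 (left) and Csf2rb2 as a percentage of the 2 beta chain genes' counts (right). Points are libraries, bars are mean and SD of 3 libraries, and both axes start at 0. The SIRPa libraries sit lowest on the left, at 14.9 to 17.4, with no overlap between populations, while the populations overlap or nearly touch on the right.

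To set the receptors against each other, levels were divided by the length of each gene's merged exons (CPM per kb). Csf1r led in CD301b and SIRPa cells at 111 and 116 CPM per kb, and Flt3 led in XCR1 cells at 84.0 CPM per kb. In CD301b cells the order after Csf1r was Flt3 (52.8), Csf2rb (48.8), Csf2ra (40.4), Csf2rb2 (32.7), Csf3r (7.89) and Kit (6.45 CPM per kb), where Flt3 overlapped Csf2rb and Csf3r overlapped Kit over the libraries. In SIRPa cells it was Csf2rb (54.4), Csf2rb2 (42.2), Flt3 (40.8), Csf2ra (33.3), Kit (11.1) and Csf3r (11.0), with overlaps between Csf2rb2 and Flt3 and between Kit and Csf3r. In XCR1 cells Flt3 was followed by Csf2rb (45.3), Csf2ra (34.3), Csf2rb2 (28.0), Kit (27.4), Csf1r (3.35) and Csf3r (0.143), with overlaps from Csf2ra to Csf2rb2 and from Csf2rb2 to Kit. Kit thus overlapped Csf2rb2 in XCR1 cells and lay below Csf2ra, Csf2rb and Csf2rb2 in the other populations, and Csf1r fell from the first place to the sixth.

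Of the 7 genes' summed level per kb, Csf1r made up 36.9%, 37.6% and 1.53% in CD301b, SIRPa and XCR1 cells, Flt3 17.6%, 13.2% and 37.7%, and Kit 2.16%, 3.59% and 12.3%. The top gene of each population stayed the same with the length of the longest coding transcript in place of merged exons. Lower places did not: with that length Kit (11.0) lay above Csf3r (8.18 CPM per kb) in CD301b cells, Flt3 (68.8) and Csf2ra (51.7) above Csf2rb2 (42.2) in SIRPa cells, and Kit (46.6) above Csf2rb2 (28.0) in XCR1 cells.

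**Figure D5:**
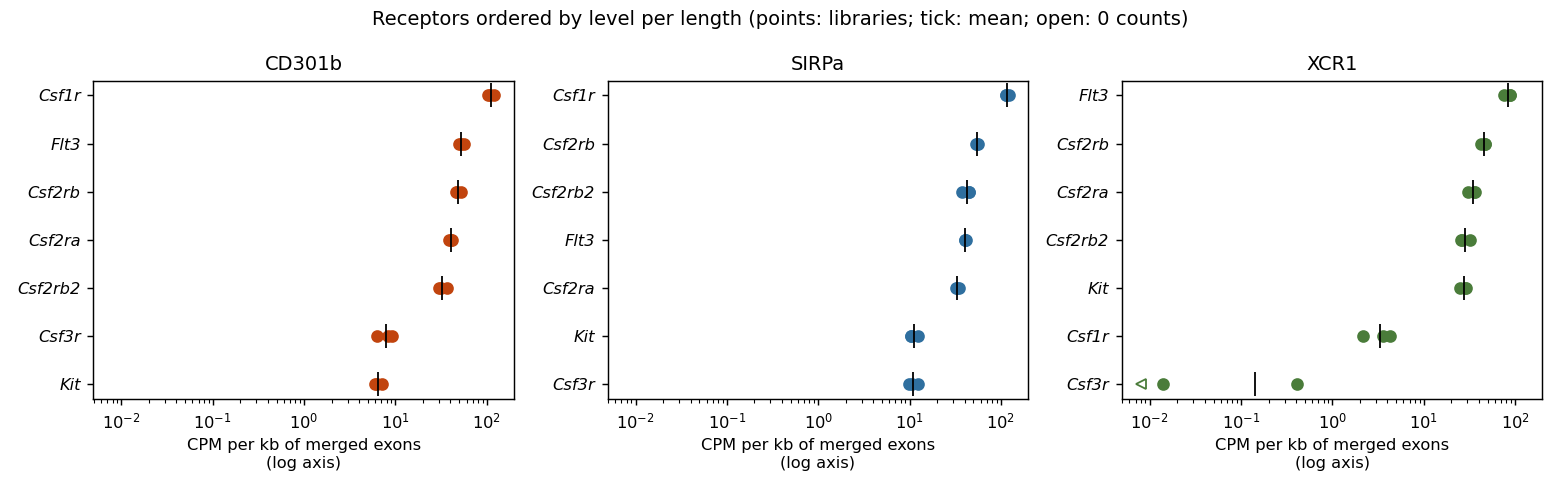
Receptor genes ordered by their level per kb of merged exons within each population, on a log axis. Points are libraries, vertical ticks are means, and the open triangle is an XCR1 library with 0 counts of Csf3r. Csf1r is at the top for CD301b and SIRPa cells, and Flt3 is at the top for XCR1 cells with Csf1r and Csf3r at the bottom.

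Few transcripts of the receptors' own ligands were present. Of 8 ligand genes only Csf1 (CSF-1) and Flt3l (FLT3 ligand) had enough counts to be tested. Csf1 was at 7.64 ± 1.86, 16.5 ± 4.14 and 7.63 ± 2.73 CPM in CD301b, SIRPa and XCR1 cells. It was higher in SIRPa than in XCR1 cells (log2 fold change 1.11 ± 0.34, adjusted p = 0.0202), a call lost in fits without SIRPa replicate 1 or 3 or XCR1 replicate 1 or 3 (0.0592 to 0.121). CD301b against SIRPa gave -1.11 ± 0.34 (adjusted p = 0.0771), which passed in DESeq2, with no filter on low counts and with the 6 libraries compared alone (0.0357 to 0.0474). Flt3l had 238, 227 and 154 counts in all, of which CD301b replicate 3 alone held 156 (6.54 CPM, against 1.31 and 2.40 in the other CD301b libraries). Its fold change between CD301b and SIRPa cells was -0.03 ± 0.67 with all libraries and -0.92 ± 0.80 without that one (adjusted p = 0.996 and 0.730), and SIRPa against XCR1 did not pass (0.49 ± 0.67, adjusted p = 0.692). Il34, the other CSF1R ligand, had 14 counts, all in XCR1 replicate 2. Kitl (stem cell factor) had 12 counts in CD301b replicate 3 and 4, 53 and 0 in the SIRPa libraries. Csf2 (GM-CSF) had 1 count over the 9 libraries, in the XCR1 group, and Csf3, Il3 and Il5 had none.

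Among 10 related receptor chains, 6 were tested, and 4 of these were higher in SIRPa than in XCR1 cells and the same number in CD301b than in XCR1 cells. None was lower. Of all genes tested, 13.9% and 13.5% were higher in these comparisons. Lifr, the LIF receptor, was at 112, 70.7 and 1.91 CPM in CD301b, SIRPa and XCR1 cells (log2 fold change against XCR1 5.87 ± 0.24 in CD301b cells and 5.20 ± 0.24 in SIRPa cells, adjusted p = 2.28e-13 and 9.93e-13). Il7r, the alpha chain of the receptors for IL-7 and TSLP, was at 112, 105 and 10.5 CPM (3.41 ± 0.18 and 3.32 ± 0.18, 4.27e-12 and 6.18e-12). Il6st, the signalling chain gp130, was at 445, 276 and 101 CPM and was graded over the 3 populations. It was also higher in CD301b than in SIRPa cells (0.69 ± 0.12, adjusted p = 0.00129). Crlf2, the TSLP receptor chain, passed with 0.82 ± 0.21 against XCR1 in CD301b cells (0.00694) and 0.63 ± 0.21 in SIRPa cells (0.0335), the second call being lost in 5 of 16 alternatives. Between CD301b and SIRPa cells Lifr passed barely (0.67 ± 0.19, adjusted p = 0.0442) and was lost in 7 of 16 alternatives (0.0563 to 0.234), among them each that left out 1 SIRPa library.

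The 26 signal transducer genes listed did not move one way. Against XCR1 cells, 9 were higher and 7 lower in SIRPa cells, and 9 higher and 7 lower in CD301b cells, with medians of 0.08 and 0.07 close to those of all genes. Over all genes, 13.9% were higher and 10.7% lower in SIRPa cells, and 13.5% and 9.12% in CD301b cells. The higher ones included Tyrobp, the adaptor DAP12, at 174, 168 and 54.1 CPM in CD301b, SIRPa and XCR1 cells (1.63 ± 0.12 in SIRPa and 1.68 ± 0.12 in CD301b cells, adjusted p = 1.11e-09 and 7.32e-10), and the Src family kinases Fgr and Lyn. Jak2, the kinase bound to the GM-CSF receptor's beta chain, was at 966, 747 and 503 CPM and was higher than in XCR1 cells by 0.94 ± 0.09 in CD301b cells (9.37e-08). Shc1, an adaptor towards RAS, was lower in SIRPa than in XCR1 cells (-1.14 ± 0.15, 8.46e-06). Between CD301b and SIRPa cells 3 of the 26 were higher, against 2.2% of all genes. They were Fgr (0.56 ± 0.11, adjusted p = 0.00555), Shc1 (0.69 ± 0.15, 0.0109) and Jak2 (0.37 ± 0.09, 0.0206). Of these 3 calls, only that of Fgr was kept in all 16 alternatives. Shc1 lost its call in fits without SIRPa replicate 1 or 3, and Jak2 without CD301b replicate 3 or any 1 SIRPa library.

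Of 21 brakes on receptor signalling, 11 were higher and 2 lower in SIRPa than in XCR1 cells (median 0.65), and 10 were higher and 3 lower in CD301b than in XCR1 cells (median 0.39). Over all genes, 13.9% were higher and 10.7% lower in SIRPa cells (median 0.06), and 13.5% and 9.12% in CD301b cells (median 0.05). Socs3, which blocks cytokine receptors such as CSF3R and gp130, was at 95.3, 90.3 and 8.18 CPM in CD301b, SIRPa and XCR1 cells (3.54 ± 0.22 and 3.46 ± 0.22 against XCR1 for CD301b and SIRPa, adjusted p = 6.49e-10 and 8.22e-10). Ptpn6, the phosphatase SHP-1, was at 405, 408 and 197 CPM (1.04 ± 0.11 and 1.05 ± 0.11). The sheddases Adam10 and Adam17, of which Adam17 cleaves CSF1R from the cell surface, were higher than in XCR1 cells by 0.86 to 1.09 on the log2 scale. The lower ones, named here after their values were seen, were Inpp5d (the lipid phosphatase SHIP1, -0.78 ± 0.10, 2.34e-06) and Cbl in SIRPa cells, and Inpp5d, Cblb and Sh2b3 in CD301b cells. Sh2b3 (adjusted p = 0.0295) lost its call in 5 of 16 alternatives (0.0503 to 0.128), among them each that left out 1 XCR1 library and the one without CD301b replicate 1. Between CD301b and SIRPa cells 2 were lower, against 2.08% of all genes. They were Cblb (-0.51 ± 0.11, adjusted p = 0.00970), a ubiquitin ligase, and Spred1 (-0.56 ± 0.12, 0.0105), an inhibitor of RAS signalling. Each lost its call in fits without CD301b replicate 3 and without 1 SIRPa library, replicate 1 for Cblb and replicate 2 for Spred1.

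Of 18 target genes of STAT5 and growth factors, 6 were higher and 3 lower in SIRPa than in XCR1 cells, 9 higher and 3 lower in CD301b than in XCR1 cells, and 3 higher and 2 lower in CD301b than in SIRPa cells. The shares over all genes were 13.9% and 10.7%, 13.5% and 9.12%, and 2.2% and 2.08% in that order. Id2, a regulator needed for cDC1, rose from 71.6 CPM in CD301b to 133 in SIRPa and 516 in XCR1 cells. The chemokine gene Ccl17 ran the other way, at 119, 34.3 and 12.8 CPM, with 1.79 ± 0.18 for CD301b minus SIRPa (adjusted p = 2.84e-06). Bcl6, which STAT5 represses, was lower than in XCR1 cells by -1.30 ± 0.13 in SIRPa cells (7.53e-08) and by -1.10 ± 0.12 in CD301b cells (7.32e-07). The decoy receptor gene Il1r2 was at 14.0, 11.8 and 1.31 CPM. Ccnd3 (cyclin D3, 0.66 ± 0.13, adjusted p = 0.00284) and Pim1 (0.54 ± 0.12, 0.00789) were higher in CD301b than in SIRPa cells, the Pim1 call being lost without CD301b replicate 1 or SIRPa replicate 3. Ccr7, the chemokine receptor of migrating dendritic cells, is named outside the naming rule and was chosen after its values were seen. It was lower in CD301b than in SIRPa cells (-0.56 ± 0.13, adjusted p = 0.0132). The call was lost without SIRPa replicate 1 (0.0792) and with the replicate number as a block (0.0803). All 18 genes have other regulators as well, so their levels do not measure receptor activity.

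For each receptor the genes with the most similar profile over the 9 libraries were found among 9433 genes of at least 5 CPM, by the root mean square (RMS) difference of centred log2 CPM. Csf1r was closest to Adgre1 (0.20), Clec7a (0.30) and Ms4a6d (0.33), while its own values spread by an RMS of 2.43. Kit was closest to Ppfibp2 (0.17), Ly75 (0.18) and Rnf144b (0.18), against its own 0.87. Adgre1 encodes the macrophage surface protein F4/80 and Ly75 the endocytic receptor DEC-205. Flt3 was closest to Actg1, Srebf2 and Tbc1d9 (0.08 to 0.09, against 0.44), and Csf3r to Gda, Pilra and Mtus1 (0.37 to 0.41, against 3.40). Csf2ra was closest to Snap29, Arpc4 and Glud1, Csf2rb to Os9, Samhd1 and Map3k1, and Csf2rb2 to Arrb2, Ifnar1 and Relb, with RMS differences of 0.05 to 0.11. Csf2ra, Csf2rb and Csf2rb2 varied little themselves (0.13 to 0.28).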

How the data were processed

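Thymi were digested with collagenase, stained and sorted, and stranded total RNA libraries were made from the RNA, per the labels' protocols. The authors deposited raw read counts per gene for 9 libraries, and a second table of log2 CPM. The submitters' processing notes name FastQC, Trimmomatic, HISAT2, SAMtools, featureCounts (Subread) and edgeR with mm10, without versions, and the annotation used is not stated. The deposited log2 CPM differed from the values recomputed from the counts by 0.113 to 0.124 over 60 values of the receptor genes above 10 CPM, and served for this check alone. Rows whose symbol reads as a date, 24 in all, name no gene and were left out (0.125 to 0.187% of counts). No pair of replicates agreed within sampling noise (mean chi-square per gene 18.7 to 58.4 over 11290 genes), so none was counted as 1 sample.

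Genes were filtered with filterByExpr (minimum count 10), scaled by TMM and tested two-sided with edgeR's quasi-likelihood test in 1 fit over the 9 libraries, with Benjamini-Hochberg adjustment over 15417 genes and a threshold of 0.05 (R 4.3.3, edgeR 4.0.16, limma 3.58.1, DESeq2 1.42.0, Python 3.11.15, SciPy 1.17.1, Biopython 1.88). On simulated counts for CD301b against SIRPa, the test recovered 59% of the 2-fold and 69% of the 4-fold changes put in. Of the genes it called there, 1.54% were false. The changes were put into 100 genes each of 15417, in the CD301b libraries alone, with all other means equal over the populations. The simulated spread followed the fitted trend and not each gene's own spread. These shares are therefore not the power or error of the tests reported here. Gene positions and exon lengths are from GENCODE M21. Alternatives were raw totals (for levels), DESeq2's size factors, DESeq2, limma-voom, no filter, a stricter filter (50), only the 6 libraries compared, a replicate block, leaving out each library, and adding Csf2rb to Csf2rb2. The ratio of alpha to beta chain counts and the length of the longest coding transcript were added after seeing the data.

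The receptor genes and all gene lists were chosen with earlier results of these data known. Besides the 7 receptor genes and all 8 ligands, up to 4 genes per list and comparison are named, those called with the smallest adjusted p, and where fewer than 2 were called the uncalled gene with the highest level. The result of 1 signal transducer gene that this rule names is not reported here. Profile likeness names the 3 closest genes, after adding 0.1 CPM. Plasmacytoid dendritic cell genes summed to 538 to 687, 391 to 442 and 98.7 to 129 CPM, and B cell genes to 7.68 to 8.47, 20.0 to 29.3 and 2.44 to 16.6 CPM in CD301b, SIRPa and XCR1 libraries.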

Additional observations from a re-analysis of the deposited data

How the results depend on the processing

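No receptor gene changed direction among its calls under any alternative run. Leaving out 1 library at a time, the number of receptor genes called was 1 to 2 between CD301b and SIRPa cells, 5 to 6 between SIRPa and XCR1 cells and 4 in every fit between CD301b and XCR1 cells. The genes called in all were then 328 to 813, 3015 to 4042 and 2921 to 3249, against 660, 3803 and 3487 with all libraries. The count between CD301b and SIRPa cells fell by more than 1.5 times without CD301b replicate 3 (438) and without SIRPa replicate 1 (328) or 3 (418). Over all alternatives, 339 fold changes of the receptor genes kept their side of the threshold, 14 lost a call (Flt3 between CD301b and SIRPa cells and Csf2rb between SIRPa and XCR1 cells) and 1 gained one (Csf2rb2 in DESeq2). Among the pathway lists, leaving out SIRPa replicate 1 or 3 took the signal transducers higher in CD301b than in SIRPa cells from 3 to 1. Over all fits that left out 1 library, this count was 1 to 4. In the same comparison, the related chains higher in CD301b cells were 1 to 2 (2 with all libraries), the brakes lower 0 to 3 (2), and the STAT5 and growth factor targets lower 1 to 2 (2). In all, 31 pathway list counts moved by more than 1.5 times or to or from 0 and 449 did not. With raw totals in place of TMM, mean levels stayed within 1 SD except those of Flt3 (259) and Csf2rb (408 CPM) in SIRPa cells.

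With the replicate number as a block, 2, 6 and 4 receptor genes were called in the 3 comparisons, and 660, 4034 and 2913 genes in all. Ccr7 (adjusted p = 0.0803) and Lifr (0.0911) between CD301b and SIRPa cells, both named above as called, did not pass in that fit. Libraries with the same number were correlated at -0.01 to 0.08 (7 pairs) and those with different numbers at -0.09 to 0.08 (20 pairs), so the numbers were not taken to pair the samples, for which every pair had to exceed 0.1. In pairs of a SIRPa and an XCR1 library alone, each of these 6 libraries correlated best with its own number, a hint from the data and not from the design. With CD301b libraries included this did not hold. SIRPa replicate 1, XCR1 replicate 2 and XCR1 replicate 3 then correlated best with a CD301b library of another number (0.045, 0.077 and 0.082). At 3 counts per library, levels under 0.119 to 0.150 CPM are not distinguishable from 0. Among the receptor genes this touches Csf3r in XCR1 cells only, and it also holds for Csf2 and for the lowest mast cell sums.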
